A study of Homo sapiens with 6 samples.

Results

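THRA, the gene of thyroid hormone receptor alpha, is described here with 9 other nuclear receptor genes, NR1D1, NR1D2, RARA, RXRA, RXRB, ESRRA, NR2F1, NR2F2 and NR2F6. These genes were listed by name with earlier results of the same data known, and their intervals were collected as all those with a summit inside the gene body in GENCODE version 44. They are 10 of 20046 protein-coding genes. They held 96 of the 93198 intervals on the main chromosomes. DDX5, a DEAD-box RNA helicase and transcriptional coregulator, was immunoprecipitated with the Abcam antibody ab126730 from nuclear extracts of RH30, and the recovered RNA was sequenced (RIP-seq). RH30 is an established line of alveolar rhabdomyosarcoma, a tumour of the muscle lineage, with the PAX3-FOXO1 fusion gene, so all samples come from 1 line. The 3 DDX5 immunoprecipitates, called biological replicates in the series' design, gave 1 peak list each. The 3 INPUT samples, prepared from the same line without antibody, were not analysed here. All samples were untreated as far as the labels say, and no second condition was compared.

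Nuclear receptors are transcription factors that bind DNA through a zinc finger domain, and many of them change their activity when a small lipophilic ligand enters the ligand-binding domain. Without hormone, thyroid hormone and retinoic acid receptors bound to DNA as heterodimers with a retinoid X receptor recruit corepressors, and hormone exchanges these for coactivators. In skeletal muscle, thyroid hormone acts mainly through THRA and influences fibre type and metabolism. THRA makes an mRNA for the hormone-binding receptor alpha 1 and an alternatively spliced mRNA for alpha 2, which does not bind thyroid hormone. The last exon of the alpha 2 mRNA overlaps the 3' end of NR1D1 on the opposite strand.

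The lists held 23715, 23651 and 45832 intervals in replicates 1, 2 and 3, and the sequencing depth behind them is unknown. Each summit carries the authors' fold enrichment over the peak caller's background and a q-value. Which library was the control for calling peaks is not given in the sources used here. No RNA level stood beside the intervals, so abundance of an RNA and its recovery with DDX5 cannot be told apart. Per the labels, the library kit kept no strand information, and RNA of opposite strands cannot be told apart either. Of 15 genes that mark skeletal muscle or fusion-positive rhabdomyosarcoma, 12, 13 and 14 had an interval in replicates 1, 2 and 3. Of 8 markers of other lineages, 1, 0 and 1 did, the gene being PECAM1 each time. The genes were chosen by the presence, fold enrichment, position and replicate support of these intervals, so the values below are descriptions and carry no test.

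The sequences under the summits are shown for some of the places where summits of different lists fell within 30 bp of each other, because these show where along each mRNA the recovered RNA peaked. Each window is 30 bases of GRCh38 on the strand of the named gene, 5' to 3', and the capitals mark the span from the outermost summit to the other outermost summit. The strongest region of THRA held 2 such places, at chr17:40090988-40091017 and chr17:40091148-40091177, both in the 3' UTR of the alpha 1 mRNA. The summits of the 3 lists spanned 17 and 18 bp there.
THRA 3' UTR, plus strand, upstream window: ggtcctCCCATGGGAGCAGGAGGtggggtg
THRA 3' UTR, plus strand, downstream window: cgctttGCACTATTGGGGCAAAAAtgtctt

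The interval shared by THRA and NR1D1 had its summits in replicates 2 and 3 within 17 bp of each other, at chr17:40093067-40093096. It is shown once on each strand, since the data do not say which strand was recovered, and 80% of its bases were G or C.
THRA alpha 2 last exon, plus strand: aggccgGCCGGGCGGGTCACTGGgcgtcca
NR1D1 last exon, minus strand: tggacgcCCAGTGACCCGCCCGGCcggcct

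In RARA, summits of all 3 lists fell close together in 3 coding exons and at 2 places in the 3' UTR, and the coding windows are shown because most of its shared regions are coding. The summits spanned 7 bp in exon 2 at chr17:40331289-40331318, 25 bp in exon 4 at chr17:40349845-40349874 and 9 bp in exon 5 at chr17:40351968-40351997. All windows are on the plus strand.
RARA exon 2: acgccttcttcTTCCCCCctatgctgggtg
RARA exon 4: gcATCATCAACAAGGTGACCCGGAACCgct
RARA exon 5: gagctacacgCTGACGCCGgaggtggggga

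Of the other receptors, NR2F2 is shown for its coding summits at chr15:96334506-96334535, plus strand. RXRA and NR2F6 are shown for summits close to the end of the transcript, at chr9:134440431-134440460 on the plus strand and chr19:17231991-17232020 on the minus strand. The spans were 11, 7 and 13 bp over the 3 lists.
NR2F2 exon 2, coding: catacggatCTTCCAAGAGCaagtggagaa
RXRA 3' UTR end: ttctccgtacgATTGTCTctgaaacatcgt
NR2F6 3' UTR end: cctggcgtcGGCCAGAGGGGCTgctccagt

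Intervals were found in 7, 8 and 10 of the 10 receptor genes in replicates 1, 2 and 3, where 35.2%, 35.8% and 45.8% of all protein-coding genes had one. All 10 had one in at least 1 list, against 51.7%. THRA, NR1D2, RARA, RXRA, RXRB, NR2F2 and NR2F6, 7 of the 10, had an interval in every list, against 25.8% of protein-coding genes. NR1D1 had intervals in replicates 2 and 3, and ESRRA and NR2F1 in replicate 3, the longest list. A region whose intervals overlapped in all 3 lists was present in 5 genes, namely THRA, RARA, RXRA, NR2F2 and NR2F6, and in 18.9% of protein-coding genes. Only THRA and RARA of the 10 had a summit of fold enrichment of at least 4 in every list, against 4.22% of protein-coding genes. The same 5 genes with a shared region also kept an interval in every list at a q under 1e-05.

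The number of intervals differed between the lists, with 22 in replicate 1, 27 in replicate 2 and 47 in replicate 3. THRA held 4, 7 and 11 of them, RARA 7, 6 and 10, and NR2F2 5, 7 and 5. RXRA held 2, 2 and 7, and NR2F6 held 1 in each list. The intervals merged into 54 gene regions, and 14 of these were found in all lists: 5 in RARA, 5 in NR2F2, 2 in THRA and 1 each in RXRA and NR2F6. Of all merged regions in the series, 13.6% were found in all lists.

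A gene's level was taken from its best summit in each list, the one with the highest −log10 q. This summit could lie at a different place in each list, so a mean is not always that of 1 place. In NR2F2 it lay in the coding sequence, the 3' UTR and the 5' UTR in replicates 1, 2 and 3. In RARA it lay in the 3' UTR in replicate 1 and in the coding sequence in replicates 2 and 3. In RXRB and NR1D2 it lay in an intron in replicate 2 and in the 3' UTR in replicates 1 and 3. THRA stood highest, with a fold enrichment of 10.1, 10.9 and 13.2 in replicates 1, 2 and 3, which averages 11.4 ± 1.62 (SD, n = 3). RARA followed with 5.23, 5.15 and 7.66, a mean of 6.02 ± 1.43 (SD, n = 3). The lowest THRA value lay above the highest RARA value, so these neighbours in the order did not overlap. NR2F2 had 3.02, 3.92 and 5.83, a mean of 4.26 ± 1.43 (SD, n = 3). RXRB had 3.17, 3.89 and 4.96, a mean of 4.01 ± 0.898 (SD, n = 3). RARA overlapped NR2F2 in range, and NR2F2 overlapped RXRB. RXRA had 2.91, 2.70 and 3.24, a mean of 2.95 ± 0.269 (SD, n = 3). NR2F6 had 2.98, 2.18 and 2.95, a mean of 2.70 ± 0.454 (SD, n = 3), and NR1D2 had 2.44, 3.14 and 2.42, a mean of 2.66 ± 0.410 (SD, n = 3). From RARA downwards, no 2 neighbours in this order had ranges that stood apart. NR1D1 reached 8.02 and 8.20 in replicates 2 and 3, through the interval it shares with THRA. NR2F1 had 3.93 and ESRRA 3.19 in replicate 3.

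**Figure D1:**
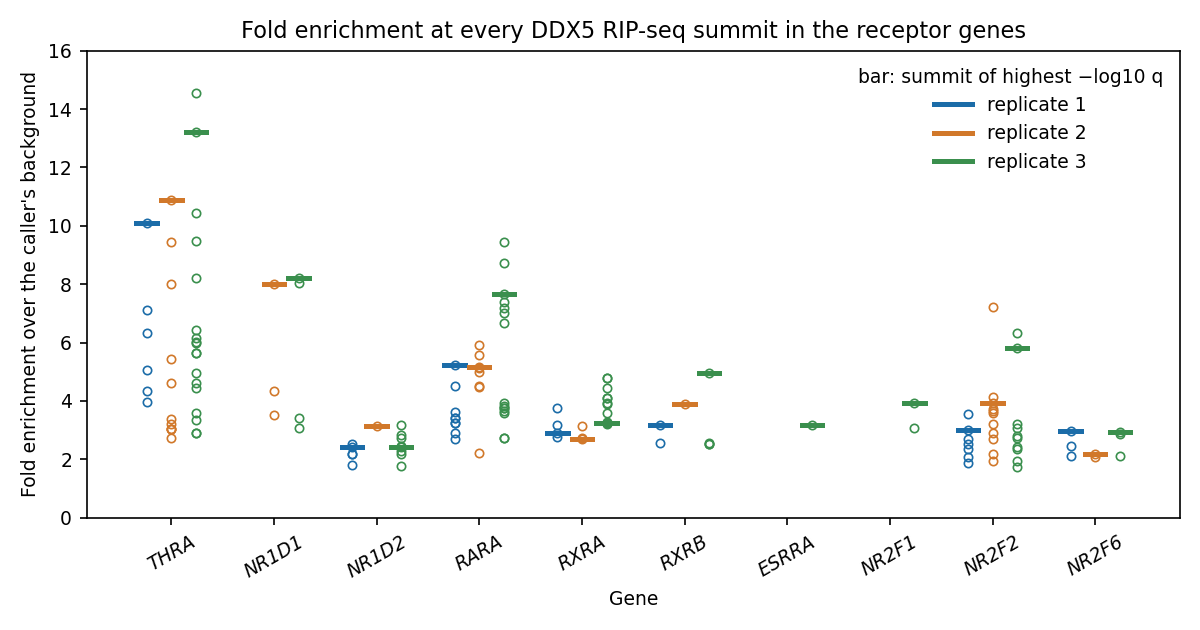
Fold enrichment over the caller's background (vertical axis) at every summit in each receptor gene (horizontal axis), with open circles for summits, colours for the 3 DDX5 immunoprecipitates and a bar at the summit of highest −log10 q in each. The THRA bars lie between 10.1 and 13.2, above the bars of every other gene plotted, and NR1D1, ESRRA and NR2F1 lack circles in at least 1 list.

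THRA lies at chr17:40058290-40093867 on the plus strand (gene ENSG00000126351.13). Its MANE Select transcript THRA-203 has 9 exons and 5204 bases and encodes the 410 residues of alpha 1. Among protein-coding genes with an interval, its best −log10 q stood at percentile 99.6, 98.7 and 99.9 in replicates 1, 2 and 3. Both THRA regions found in all lists had their best summits in the last exon of THRA-203, which spans chr17:40089206-40093002. The stronger one, chr17:40090376-40091249, lies wholly in the 3' UTR and had 10.1, 10.9 and 13.2, and it holds the THRA windows printed above. These values mix the 2 windows. In the upstream window replicates 1, 2 and 3 had 7.11, 10.9 and 13.2, and in the downstream window 10.1, 9.46 and 14.6. The 14.6 of replicate 3 was the highest single summit of the gene. The other region, chr17:40089160-40090126, starts before the last exon, spans the stop codon of alpha 1 and had 6.32, 5.45 and 9.49, a mean of 7.09 ± 2.13 (SD, n = 3). The stronger region was above the other one in every list.

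Further intervals of THRA were found in fewer lists. At chr17:40092365-40092616, close to the end of the 3' UTR, replicates 1 and 3 had 5.05 and 10.4 with the summit at the same base, and replicate 2 had no interval. Coding exon 8 had 3.97 and 6.01 in replicates 1 and 3, and coding exon 7 had 3.05 and 3.34 in replicates 2 and 3. Replicate 3 had intervals of its own in the 5' UTR of exon 2 (4.44), in exons 4, 5 and 6 (2.90, 2.90 and 4.95) and in the 3' UTR (4.61). Replicate 2 had 1 intronic interval at chr17:40073313-40073567, with 3.21. Intervals covered 16.4%, 18.8% and 87.1% of the THRA coding sequence in replicates 1, 2 and 3, and 27.4%, 33.2% and 59.3% of its 3' UTR. Replicate 3 was thus apart from the others in the coding sequence.

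The isoforms of THRA can be compared by position where their exons differ. Exon 9 of THRA-201, the 490-residue alpha 2 form, ends at base 40089333, and THRA-203 reads on through 3669 bases that the exons of THRA-201 lack. All of these, called alpha 1 bases here, lie in the intron before exon 10 of THRA-201, and 210 lie also inside NR1D1. Unspliced alpha 2 RNA from the nuclear extracts would hold them too. A summit there therefore cannot be assigned to the alpha 1 mRNA alone. These alpha 1 bases held 5, 5 and 10 summits with a highest fold enrichment of 10.1, 10.9 and 14.6, and intervals covered 26.4%, 32.1% and 60.6% of them. The 1535 bases common to both transcripts held 1, 2 and 7 summits with a highest fold enrichment of 3.97, 3.37 and 6.15. Intervals covered 13.2%, 15.1% and 65.9% of these common bases, a larger share than of the alpha 1 bases in replicate 3 only. The 1003 bases found in THRA-201 alone held 0, 1 and 1 summits, all in the interval shared with NR1D1. Over the 3 lists, with every summit of an interval counted, 20 of 35 THRA summits lay in alpha 1 bases, 10 in common bases and 2 in alpha 2 bases. The other 3 lay in the 1 intronic interval of replicate 2. These counts are not scaled to the lengths of 3669, 1535 and 1003 bases, so they do not show denser summits in alpha 1 bases. The highest fold enrichment was larger in alpha 1 bases than in common bases in every list.

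**Figure D2:**
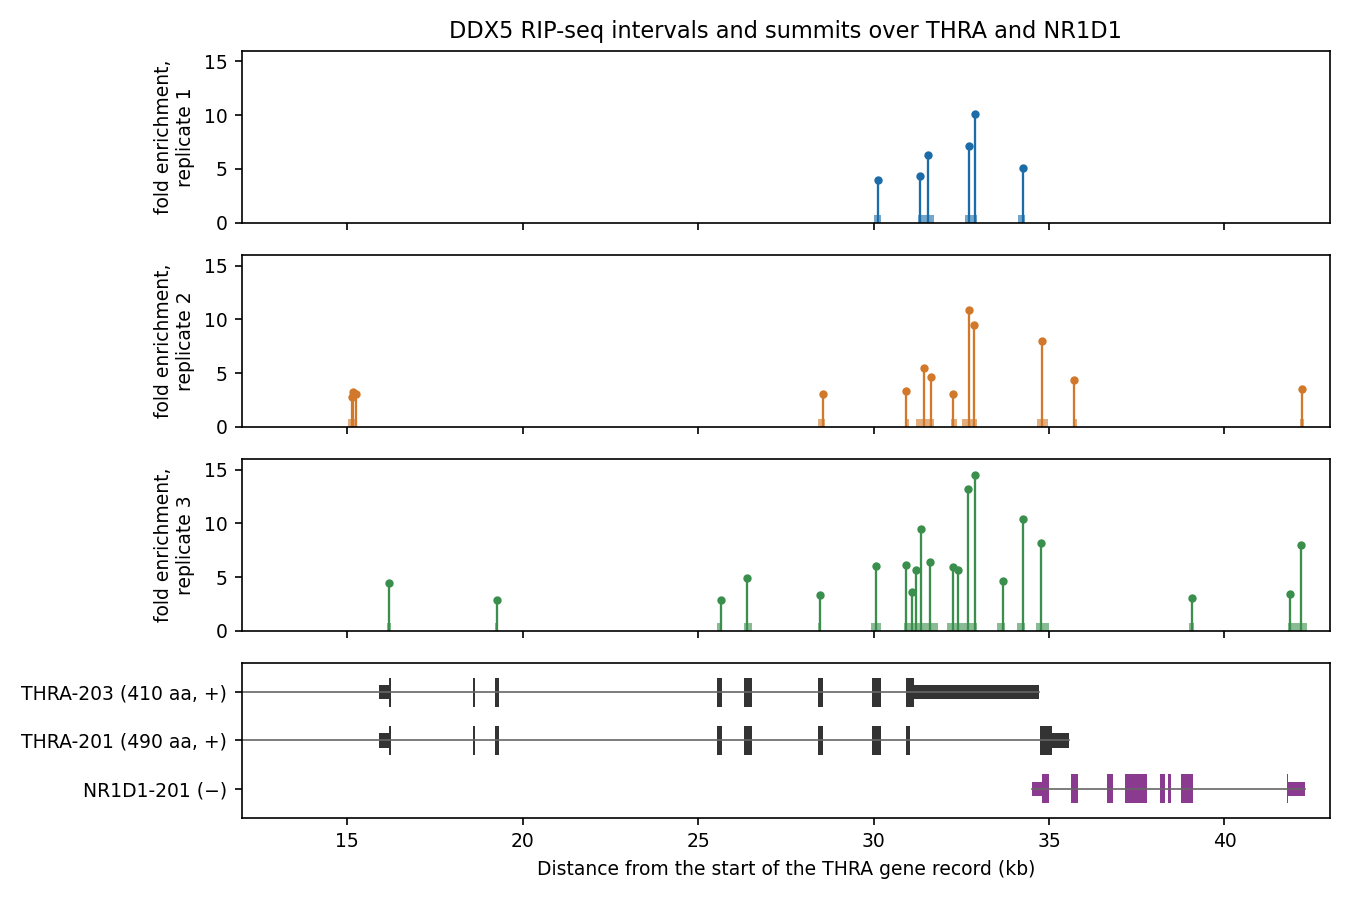
Map of the THRA and NR1D1 locus from 12 kb after the start of THRA (horizontal axis, kb), with the exons of THRA-203, THRA-201 and NR1D1 drawn to scale under 3 panels, 1 per list, that show the fold enrichment of every summit as points (vertical axis) and the intervals as blocks at the base. The highest points, up to 14.6, lie in the last exon of THRA-203, and the points at 8.02 and 8.20 lie where the last exons of THRA-201 and NR1D1 overlap; the first THRA exon, left of the panel, held no summit.

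NR1D1 encodes REV-ERB alpha, a heme-binding repressor of the circadian clock. The gene lies at chr17:40092793-40100589 on the minus strand (ENSG00000126368.6), and its body overlaps that of THRA over 1075 bp. The interval in this overlap had 8.02 in replicate 2 and 8.20 in replicate 3, with −log10 q of 24.8 and 26.1, and was not listed in replicate 1. In replicate 2 it spanned chr17:40092938-40093265, and all of its 328 bases lay in exon 8 of NR1D1, the last one. Of these bases, 246 lay also in exon 10 of THRA-201 and 65 in exon 9 of THRA-203. In replicate 3 it spanned chr17:40092928-40093287, 360 bases of which 355 lay in exon 8 of NR1D1, 268 in exon 10 of THRA-201 and 75 in exon 9 of THRA-203. Its right end fell 17 bp before the end of NR1D1 exon 8 in replicate 2 and 5 bp past it in replicate 3. The alpha 2 exon went on for another 602 and 580 bp without an interval. On the other side, exon 8 of NR1D1 begins at base 40092793, so part of that exon also lay outside the interval in both lists.

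The remaining NR1D1 intervals lay outside THRA. In exon 1, the 5' UTR region chr17:40100100-40100636 had 3.53 in replicate 2 and 8.03 in replicate 3. Coding exon 7 had 4.33 in replicate 2, and coding exon 2 had 3.07 in replicate 3. Of these NR1D1 exons outside THRA, only exon 1 had an interval in both lists that held the overlap interval, and replicate 1 had no NR1D1 interval. THRA also had intervals outside the overlap in both of those lists. Which strand the overlap interval came from was not tested.

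NR1D2 encodes REV-ERB beta, the paralogue of NR1D1, at chr3:23945286-23980617 on the plus strand. Its 3' UTR region chr3:23977345-23977937 had 2.44 and 2.42 in replicates 1 and 3. Replicate 2 held a single NR1D2 interval, in an intron, with 3.14, so the gene had an interval in every list but no region in all of them. Replicate 3 added 5 coding intervals of up to 3.18, which brought the covered share of the coding sequence to 46.2%, from 2.24% and 0% in replicates 1 and 2.

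RARA, the retinoic acid receptor alpha gene, lies at chr17:40309180-40357643 on the plus strand. Intervals covered 31.5%, 58.3% and 68.9% of its mRNA in replicates 1, 2 and 3. Summits fell in exons 2, 4, 5, 6 and 9 of the 9 exons in every list, in exon 3 in replicates 2 and 3, and in exon 8 in replicate 3. No summit fell in exons 1 and 7. Replicate 3 had 3 more RARA intervals outside the exons of the MANE Select transcript, with 2.73, 3.93 and 2.73. The first of them lies also in the gene record ENSG00000287644. The last lies also in RARA-AS1 and is coding in another RARA transcript. Exon 2, with the start of the coding sequence, had 3.61, 5.58 and 8.71 in replicates 1, 2 and 3, averaging 5.97 ± 2.57 (SD, n = 3). Exon 4 had 2.71, 4.51 and 7.18, a mean of 4.80 ± 2.25 (SD, n = 3), and exon 5 had 3.24, 5.15 and 7.66, a mean of 5.35 ± 2.22 (SD, n = 3). Exon 6 had 3.41, 2.204 and 3.85, a mean of 3.15 ± 0.850 (SD, n = 3). The 3' UTR region chr17:40356205-40357315 had 5.23, 5.93 and 9.43, a mean of 6.87 ± 2.25 (SD, n = 3). Replicate 3 was highest at each of these 5 regions. The exon 3 and exon 4 summits lie also inside the overlapping gene record ENSG00000278918.

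Intervals covered 36.9%, 54.9% and 64.6% of the RARA coding sequence in replicates 1, 2 and 3, and 31.1%, 66.9% and 76.9% of its 3' UTR. RARA and NR2F2 were the only receptors of the 10 with over 30% of the coding sequence covered in every list. Of the bases of RARA intervals with an exonic summit, 83.0%, 83.1% and 84.4% lay in exons, and over all 10 genes 95.8%, 93.0% and 94.5% did.

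**Figure D3:**
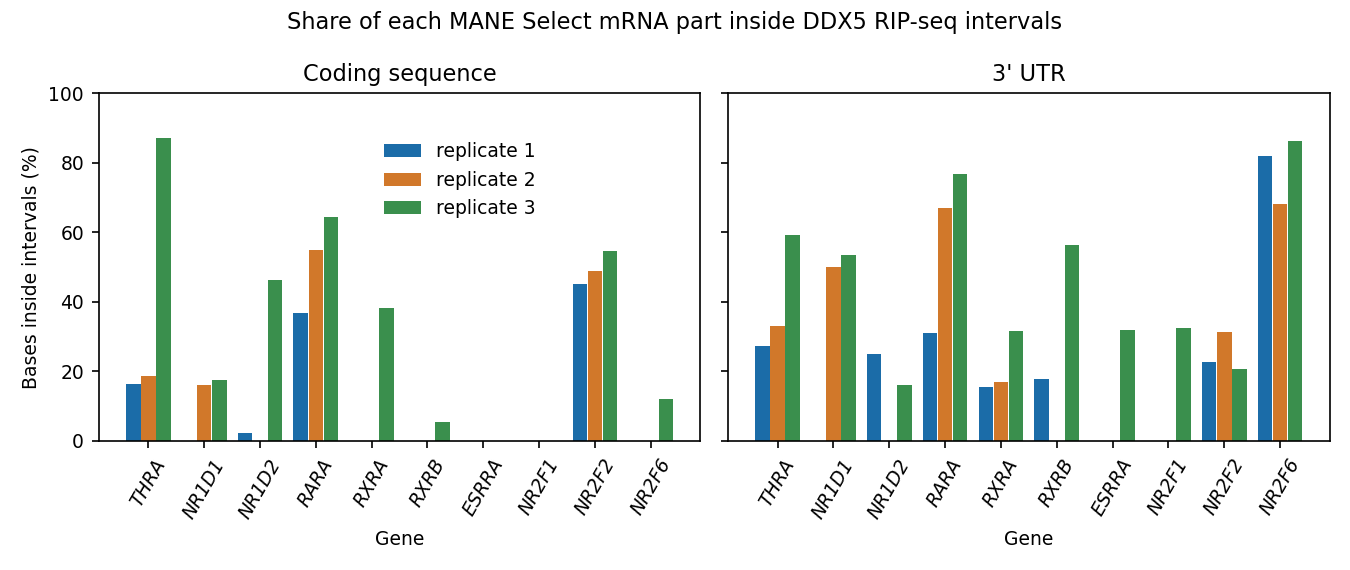
Percent of bases inside an interval (vertical axis) in the coding sequence and in the 3' UTR of the MANE Select mRNA of each receptor gene (horizontal axis), with 1 bar per DDX5 immunoprecipitate. The coding bars of THRA stand at 16.4%, 18.8% and 87.1%, and the 3' UTR bars of NR2F6 at 82.1%, 68.2% and 86.4%.

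RXRA encodes the retinoid X receptor alpha, the shared heterodimer partner of the thyroid hormone and retinoic acid receptors. It lies at chr9:134317098-134440585 on the plus strand. Its only region in all lists, chr9:134439667-134440543, lies at the end of a 3' UTR of 3971 bases and had 2.91, 2.70 and 3.24. The best summits stood 137, 143 and 140 bases from the end of the transcript. Replicate 3 had further intervals in coding exons 5, 7, 8, 9 and 10, with 4.10, 3.93, 4.78, 4.78 and 4.10, and covered 38.3% of the coding sequence. Replicates 1 and 2 covered none of it. Equal values recur here, for a reason that was not tested. Many summits carry a pair of fold and p that occurs at 10 or more summits of their list. Such were 68.2%, 70.4% and 70.2% of receptor intervals in replicates 1, 2 and 3, against 60.1%, 64.9% and 72.9% of all intervals.

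RXRB, the beta form, lies at chr6:33193588-33200665 on the minus strand. Its 3' UTR region chr6:33193631-33194172 had 3.17 and 4.96 in replicates 1 and 3, with the best summits 96 and 88 bases from the transcript end. Replicate 2 had 1 intronic interval, with 3.89. RXRB and NR1D2 therefore counted as present in every list through different places in different lists. Just upstream of RXRB, within 1000 bp of its start, replicates 2 and 3 had an interval in SLC39A7 with 4.65 and 2.53, which was not counted.

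NR2F2 encodes COUP-TFII, an orphan receptor known from mesenchymal development, at chr15:96325938-96340263 on the plus strand. It held 5 regions in all lists. The 5' UTR region chr15:96331466-96331918 was the strongest, with 3.57, 7.21 and 5.83 in replicates 1, 2 and 3, averaging 5.54 ± 1.84 (SD, n = 3). The coding region in exon 2 had 3.02, 3.74 and 2.73, a mean of 3.16 ± 0.517 (SD, n = 3). The region across the stop codon had 2.52, 3.64 and 3.23, a mean of 3.13 ± 0.570 (SD, n = 3). The 3' UTR regions had 1.88, 3.92 and 2.34, a mean of 2.72 ± 1.07 (SD, n = 3), and 2.09, 2.19 and 1.75, a mean of 2.01 ± 0.226 (SD, n = 3). Replicate 2 was highest at all 5 regions, unlike at RARA, and it also held 2 intronic intervals. The coding sequence was covered to 45.2%, 49.0% and 54.8%.

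NR2F6, an orphan receptor of the same subfamily, lies at chr19:17231883-17245919 on the minus strand. Its 1 region, chr19:17231947-17232496, had 2.98, 2.18 and 2.95 and covered 82.1%, 68.2% and 86.4% of a 3' UTR of only 469 bases. NR2F1, which encodes COUP-TFI, had 1 interval in the 3' UTR in replicate 3, with 3.93 and a −log10 q of 5.73. ESRRA encodes the estrogen-related receptor alpha, an orphan receptor that controls genes of mitochondrial metabolism. It had 1 interval in replicate 3, with 3.19, and its summit lies also in TRMT112, which overlaps the end of ESRRA on the opposite strand.

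**Figure D4:**
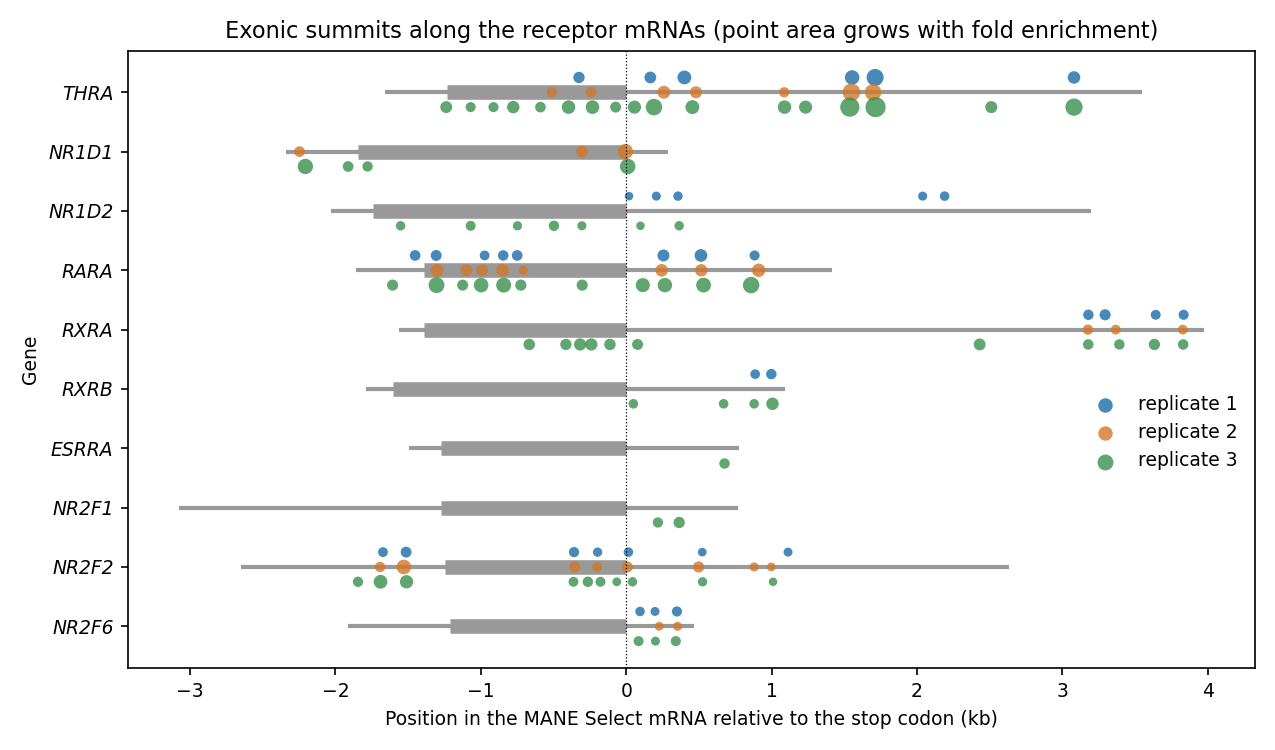
Exonic summits of each receptor gene along its MANE Select mRNA, in kb from the stop codon (horizontal axis, thick bar the coding sequence, thin line the UTRs), with genes on the vertical axis, colours for the 3 DDX5 immunoprecipitates and point area growing with fold enrichment. Of 30 exonic THRA summits, 19 lie in the 3' UTR, which holds 3546 of the 5204 mRNA bases. Another 10 lie in the coding sequence of 1233 bases, and the largest THRA points lie in the 3' UTR. RARA summits lie mainly in the coding sequence and the 3' UTR, and the RXRA summits common to all lists lie close to the transcript end.

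The receptor intervals were set beside all intervals of the same lists. Their median fold enrichment was 3.21, 3.64 and 3.85 in replicates 1, 2 and 3, against 2.66, 3.21 and 2.91 over all intervals. Their median width was 259.5, 271 and 249 bp, against 174, 194 and 188 bp. Summits in 3' UTRs made up 68.2%, 37.0% and 31.9% of receptor intervals, against 41.9%, 29.2% and 24.6% of all. Coding summits made up 27.3%, 37.0% and 55.3%, against 37.6%, 27.5% and 49.9%. Introns held 0%, 18.5% and 4.26% of receptor intervals, against 11.9%, 32.7% and 16.3% of all. In each list the pooled receptor intervals were above the whole list in median fold, median width and 3' UTR share and below it in intron share. Their coding share was below it in replicate 1 and above it in the other lists. THRA held 4, 7 and 11 of the pooled intervals and RARA 7, 6 and 10, so these values do not describe each gene. Receptor intervals lie in gene bodies by the rule, whereas 3.88%, 5.38% and 3.09% of all intervals were intergenic. Replicate 3 differed from the others in the same direction in the receptors and in the whole list, with the largest coding and the smallest 3' UTR share.

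Base composition around the summits was taken in 101-base windows of GRCh38. The mean GC content was 50.0%, 52.0% and 54.2% in replicates 1, 2 and 3 for the receptors, against 47.6%, 45.7% and 47.4% for all intervals, with means of 52.1 ± 2.09% and 46.9 ± 1.05% (SD, n = 3). A pattern of 4 runs of at least 3 G on either strand, spaced by 1 to 7 bases, was present at 2, 2 and 3 receptor intervals. These were 9.09%, 7.41% and 6.38% of receptor intervals, against 1.52%, 1.42% and 1.27% of all. The 7 cases were the NR2F2 5' UTR in each list, the THRA 3' UTR in replicate 1, THRA coding exon 9 in replicate 2, RARA exon 3 in replicate 3 and ESRRA in replicate 3. Only the NR2F2 place recurred between lists, so the shares of the lists are not from separate places. A match to this pattern is a description of the letters in the window.

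Among 38 nuclear receptor genes outside the 10, 11, 11 and 15 had an interval in replicates 1, 2 and 3, and 10 had one in every list, which is 26.3% against 25.8% of protein-coding genes. The share of these other receptors was thus near the background. PPARD, a fatty acid sensor, had a mean best fold enrichment of 5.56 ± 1.59, and NR1H2, an oxysterol receptor, 5.45 ± 2.68 (SD, n = 3). PPARA had 4.28 ± 0.555, NR6A1 4.41 ± 0.431 and NR3C1, the glucocorticoid receptor, 3.50 ± 1.17 (SD, n = 3). All of these means lay below the 11.4 of THRA. In ESR1, ESR2, NR2C2 and RORA at least 1 list had only summits that lie also in another gene record, and 6 of the 10 remained in every list without such summits. THRB, the thyroid hormone receptor beta gene, was not among the 10.

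Of 20 genes of thyroid hormone handling and receptor coregulation, 15, 15 and 16 had an interval in replicates 1, 2 and 3, and 15 (75%) had one in every list. The coactivator genes NCOA6 and THRAP3 had 6.83 ± 0.835 and 3.98 ± 1.68, and GPS2, a corepressor complex subunit, had 3.96 ± 1.40 with every summit also in another gene record. Of 16 genes listed for retinoid handling, 2 (12.5%) had an interval in every list. CYP26B1 (3.75 ± 0.928) encodes a retinoic acid-degrading enzyme, whereas RAI1 (6.11 ± 2.93), named for its induction by retinoic acid, encodes a transcriptional regulator and does not itself handle retinoids. Of 19 circadian clock genes, 9 (47.4%) did, among them the repressor genes BHLHE40 (4.73 ± 0.694) and BHLHE41 (3.15 ± 1.31) and the kinase genes CSNK1E (4.83 ± 0.783) and CSNK1D (4.60 ± 3.71). All of these are SD over 3 lists, and the share over all protein-coding genes was 25.8%.

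The genes most like THRA in the 3 lists were sought by the distance between percentiles of the best −log10 q, over 5164 other protein-coding genes with an interval in every list. HIPK3, a protein kinase gene, was nearest at 0.386 percentile points. PPT2-EGFL8 and AGPAT1, which overlap and share the same summits, followed at 0.469. The forkhead factor gene FOXP4 stood at 0.669.

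The weakest summits just inside the authors' threshold had a −log10 q of 1.60, 1.39 and 1.33 in replicates 1, 2 and 3 in the receptor genes, close to the lowest value of each whole list, which is set by a q of 0.05. Just outside the gene bodies, within 1000 bp, the intervals not counted were those upstream of RXRB and 3 downstream of ESRRA, inside TRMT112, with 1.97 in replicate 1 and 1.91 and 2.37 in replicate 3.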

How the data were processed

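RNA recovered with DDX5 from RH30 nuclei was measured as 1 deposited peak list per immunoprecipitate. Per the submitters' processing notes, bcl2fastq 2.20, FastQC 0.11.8, cutadapt 1.11, STAR 2.6.1d, SAMtools 1.10, MACS2 2.2.7.1 and GRCh38 were used; parameters and the control are not given in the sources used here. Fold enrichment is the authors' ratio of signal to the caller's background. Deposited p-values and q-values are on the −log10 scale, and the deposited score was not used. These are values of single peaks, used to describe and filter within a list.

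Summits were placed in GENCODE version 44 gene bodies on either strand. When intervals were counted, summits of 1 interval counted once, by the highest −log10 q. The THRA isoform counts and the positions of summits took every summit. Intervals of different lists sharing at least 1 bp were merged into regions. Where transcripts differed, a coding base took precedence over a 5' UTR, a 3' UTR, another exon and an intron, in that sequence. Means are over the 3 lists, and no test was made. Sequence came from GRCh38 through pysam 0.24.0, and tables were made with Python 3.11.15, pandas 2.3.3 and numpy 2.4.6. Assignment to genes was tested on simulated data.

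The genes and lists were chosen with earlier results of these data known. Named were the 10 genes, the other nuclear receptors with an interval in every list, up to 4 such genes of each pathway list by mean percentile of −log10 q, and the 5 genes nearest to THRA, except that some genes under this rule are not reported here; PECAM1, THRB, SLC39A7 and TRMT112 were named after their values were seen. Alternatives covered the q and fold limits, equal list lengths, left-out replicates, exon-only summits, summits in no other gene record, all summits, overlap definitions, MANE Select features, a wider window and the best summit by fold.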

Additional observations from a re-analysis of the deposited data

How the results depend on the processing

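Under the alternatives, 68 values for the group and THRA stayed within 1.5 times the reported count or within 1 SD and 12 did not. For single receptors other than THRA, 39 of 39 computed values stayed. Settings that left a receptor without an interval in a list gave no value and are not among the 39, as for NR1D2 and RXRB at a q under 1e-05. Leaving out 1 list cannot move a mean over 3 lists by 1 SD, so those settings could not have failed for means. Nor could a q limit or equal list lengths for the best summit of a gene. They keep the summit of highest −log10 q or give no value. With all 3 lists kept, every computed value of a single receptor other than THRA equalled the reported one. With a fold enrichment of at least 4, 2 genes had an interval in every list in place of 7, a list held 12 intervals on average in place of 32, 3 regions were found in all lists in place of 14, 3 other nuclear receptors had an interval in every list in place of 10, and the GC content was 56.6% in place of 52.1%. Regions in all lists numbered 9 at a q under 1e-05 and 8 with a reciprocal overlap of 50%. Counting every summit gave 50 per list. With summits in no other gene record, THRA and NR1D1 shared 0 intervals in place of 2, by construction, and 6 other nuclear receptors remained in every list. Leaving out 1 replicate at a time, the shared intervals numbered 1 to 2, 7 to 8 genes had an interval in every remaining list, and the THRA fold enrichment was 10.5 to 12.1. No paired analysis was possible because the INPUT samples that share the replicate numbers were not analysed here. Unknown depth limits what absence from a list can mean.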
